A study of Mus musculus with 20 samples.

Results

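Saa3, Saa1, Saa2, Lcn2, Hp, Slpi, Ptx3, Wfdc17 and Wfdc21 encode secreted proteins of the acute phase and antiprotease type. They were followed in dural CNS-associated macrophages (dCAMs), the macrophages of the outer brain covering. The 9 genes were picked by symbol from the 33243 genes of the deposited count table, with earlier results of these data known. All 9 had a total of at least 10 counts over the 20 libraries. For Saa1, Saa2 and Wfdc21 this total came from the LPS libraries, since each had fewer than 10 counts over the 10 CTL libraries.

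All mice carried the alleles Ccr2creERT2/+ and R26tdT/tdT, in which a tamoxifen-inducible Cre under the Ccr2 gene switches on the red reporter tdTomato (tdT). Each received the CSF-1R inhibitor BLZ945 by gavage at 200 mg per kg for 7 days, which empties the macrophage niche, and tamoxifen at 2 mg per day on the last day of gavage and 2 and 4 days later. LPS at 2.5 mg per kg or PBS was injected 8 weeks after the last gavage, and cranial dura was taken 12 hours later. PBS mice are called CTL, so the CTL groups had also been depleted, repopulated and given tamoxifen. From each of 5 LPS and 5 CTL mice, CD45int CD11b+ CD206int-high cells were collected as separate tdT+ and tdT- libraries, giving 4 groups of 5. Cells are tdT+ only if they or their precursors expressed Ccr2 while tamoxifen was active, so tdT- dCAMs can hold both surviving cells and cells that arose from Ccr2-expressing precursors without recombination. The age of the mice is not in the labels.

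Acute phase proteins are secreted in large amounts when the body senses infection or injury. The liver is their best known source, where interleukin 1 and interleukin 6 act through STAT3, NF-kappaB and C/EBP factors. Saa3 differs from Saa1 and Saa2 in that it is made mainly outside the liver, macrophages included. Lcn2 encodes lipocalin 2, which binds bacterial siderophores and so withholds iron. Hp encodes haptoglobin, which captures free haemoglobin. Ptx3 encodes a long pentraxin that opsonises microbes, and Slpi, Wfdc17 and Wfdc21 encode small proteins with a whey acidic protein (WAP) domain, of which Slpi inhibits neutrophil elastase.

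The 3 Saa genes lie side by side on chromosome 7 (GRCm38, GENCODE M21), with Saa3 at chr7:46711998-46715700 and Saa1 at chr7:46740497-46742980 on the minus strand and Saa2 at chr7:46751790-46754313 on the plus strand. Lcn2 is at chr2:32384633-32388252 and Slpi at chr2:164354070-164389095, both on the minus strand. Hp lies at chr8:109575128-109579172 on the minus strand. Ptx3 lies at chr3:66219910-66225805, Wfdc17 at chr11:83703991-83706268 and Wfdc21 at chr11:83746940-83752642, all on the plus strand. All 9 are protein coding. An exon of Slpi overlaps an exon of Mir7678 on the same strand, and Ptx3 shares its span, but no exon, with Veph1 on the other strand.

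The 250 bases before the annotated start are printed for the Saa genes, whose letters show how alike Saa1 and Saa2 are and how Saa3 differs, and for Lcn2, the gene whose profile over the libraries was nearest to that of Saa3. They are RefSeq sequences of GRCm38.p6 on the gene's own strand. The Lcn2 window lies inside the GENCODE span given above, and those of Saa3 and Saa2 reach into theirs. For these genes the start used thus differs from the start of the GENCODE span. Capitals mark the letters TTNNGNAA, a loose form of the C/EBP motif, found on either strand.
Saa3, chr7:46715677-46715926, minus strand: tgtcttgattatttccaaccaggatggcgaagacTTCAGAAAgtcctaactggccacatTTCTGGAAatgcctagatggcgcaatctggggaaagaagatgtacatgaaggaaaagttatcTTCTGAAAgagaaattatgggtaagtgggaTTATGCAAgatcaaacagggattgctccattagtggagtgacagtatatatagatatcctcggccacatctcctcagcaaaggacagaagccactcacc
Saa1, chr7:46742981-46743230, minus strand: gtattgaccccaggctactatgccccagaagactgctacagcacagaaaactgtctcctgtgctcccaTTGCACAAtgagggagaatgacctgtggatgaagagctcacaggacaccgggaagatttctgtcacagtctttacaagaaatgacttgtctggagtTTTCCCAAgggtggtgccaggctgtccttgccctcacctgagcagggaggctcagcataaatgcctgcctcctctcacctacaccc
Saa2, chr7:46751583-46751832, plus strand: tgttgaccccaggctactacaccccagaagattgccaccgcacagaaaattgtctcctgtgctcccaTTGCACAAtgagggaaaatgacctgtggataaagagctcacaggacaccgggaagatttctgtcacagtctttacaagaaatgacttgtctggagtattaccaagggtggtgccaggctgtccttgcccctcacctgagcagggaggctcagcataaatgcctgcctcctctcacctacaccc
Lcn2, chr2:32387740-32387989, minus strand: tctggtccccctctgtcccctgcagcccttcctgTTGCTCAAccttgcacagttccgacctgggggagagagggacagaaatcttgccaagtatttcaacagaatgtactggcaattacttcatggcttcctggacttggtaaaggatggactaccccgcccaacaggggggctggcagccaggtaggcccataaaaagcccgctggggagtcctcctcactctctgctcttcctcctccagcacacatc

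Windows of 300 bases, from 250 before the start to 50 after it, were given for 7 of the 9 genes, all but Hp and Wfdc21. The Saa1 and Saa2 windows matched at 287 of 299 aligned bases (96.0%), and Saa1 and Saa3 at 164 of 269 (61.0%). TTNNGNAA occurred in 7 of 7 windows, 4 times in that of Saa3, and in 40.7% of all 32851 windows. The kappaB motif, searched on both strands, was found only in the Ptx3 window, against 8.46% of all windows. The STAT letters TTCNNNGAA were in none of the 7 and in 8.30% of all windows, and TATAAA was in the Wfdc17 window and in 13.6% of all. Both were also read on either strand. These matches describe letters only, and binding was not measured.

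The likeness extends into the transcripts, which bears on how reads could be assigned. The principal Saa1 and Saa2 transcripts matched at 572 of 606 aligned bases (94.4%), and 51 of the 560 windows of 50 bases in Saa1 (9.11%) also occur in Saa2. Levels of Saa1 and Saa2 are therefore uncertain against each other. Saa3 shared 9 such windows with Saa1 and 0 with Saa2, which leaves most of its transcript distinct. Under LPS, however, Saa3 held 354446 to 614310 counts per library and Saa1 790 to 2001. How many Saa3 reads were counted as Saa1 was not tested.

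Library totals ran from 6017650 to 18925908 counts. LPS libraries were deeper than CTL libraries, with a lowest LPS total of 12073566 and a highest CTL total of 12208203. All levels are therefore given as CPM, counts relative to the library total scaled by TMM, and in mouse order, which is 54, 56, 59, 60 and 61 for LPS and 174, 175, 177, 178 and 179 for CTL. The 12 macrophage markers, among them Mrc1, Csf1r and C1qa, were all detected in each group. They summed to 11566 to 22726 CPM in tdT- cells and 25672 to 28177 CPM in tdT+ cells of CTL mice, and to 10841 to 13626 and 12628 to 17822 CPM under LPS. The 6 fibroblast markers reached 4668 CPM in the tdT- CTL library of mouse 179 and 1068 CPM in that of mouse 175, against 10.9 to 415 CPM in the other 18 libraries.

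The comparison of LPS with CTL asked how the repopulated dCAMs responded to a systemic endotoxin challenge. All 9 genes rose in both populations, by edgeR's quasi-likelihood test with a Benjamini-Hochberg adjusted p under 0.05 over 16632 genes and a log2 fold change over 1. Saa1, Saa2 and Wfdc21 entered the test only because of their LPS counts, so their passing is no support of its own. Of all genes tested, 7.2% passed as higher in tdT- dCAMs and 3.37% in tdT+ dCAMs. The 9 genes were chosen with earlier results of these data known, so setting them against all genes is description and no independent test. The median log2 fold change of the 9 genes was 9.84 in tdT- and 10.03 in tdT+ dCAMs, or 7.74 and 8.17 with the genes at 0 in CTL set to their lower bound, against 0.02 and 0.01 over all genes. The macrophage marker sum moved the other way, from a median of 18503 to 11354 CPM in tdT- and of 25876 to 14693 CPM in tdT+ dCAMs. Of its 12 genes, 4 fell and 2 rose in tdT-, and 3 fell and 1 rose in tdT+ dCAMs by edgeR, with a median log2 fold change of -0.47 and -0.69. Mrc1 fell by 1.14 ± 0.24 and 1.40 ± 0.24 and C1qa by 1.32 ± 0.22 and 1.29 ± 0.22 on the log2 scale, while Csf1r fell by 2.08 ± 0.18 in tdT+ dCAMs and, at -0.99 ± 0.17, did not pass the fold threshold in tdT- dCAMs (SE, n = 5 per group). Fcgr1 rose by 1.55 ± 0.24 in tdT- and 1.36 ± 0.24 in tdT+ dCAMs. Mertk rose by 2.16 ± 0.58 in tdT- dCAMs and did not pass in tdT+ dCAMs. The part of these markers in the rise of the 9 genes was not tested. Because these are bulk libraries, more cells expressing a gene and more RNA per cell cannot be told apart.

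**Figure D1:**
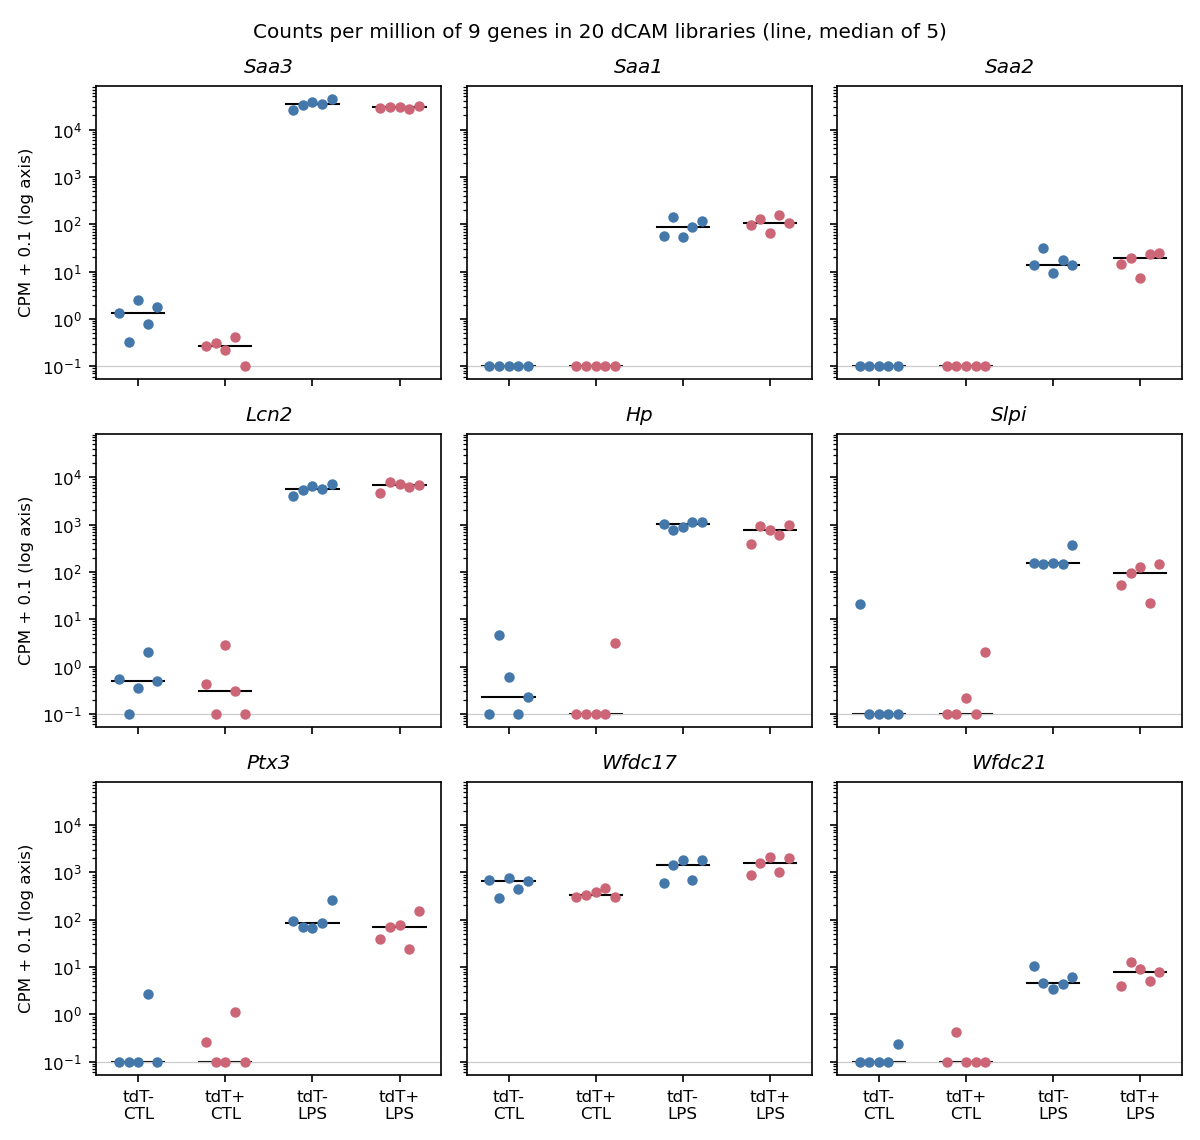
Level of each of the 9 genes in every library, as CPM plus 0.1 on a logarithmic axis; each point is 1 library (blue, tdT-; red, tdT+), points run in mouse order and the line is the median of 5. Saa1 and Saa2 sit at 0 in all 10 CTL libraries, while Wfdc17 starts at 292 to 759 CPM and its LPS and CTL libraries overlap in tdT- dCAMs.

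Saa3 had by far the largest counts of the 9 genes under LPS. In tdT- dCAMs it stood at 25496, 32986, 37749, 34855 and 43487 CPM in the LPS mice, against 1.21, 0.220, 2.46, 0.677 and 1.70 CPM in the CTL mice. In tdT+ dCAMs it stood at 28252, 29301, 30179, 27711 and 31603 CPM under LPS, against 0.162, 0.212, 0.115, 0.314 and 0 CPM in CTL. The groups were far apart in both populations, and the tdT+ LPS libraries lay within 1.14-fold of each other.

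The log2 fold change of Saa3 was 14.77 ± 0.57 (SE, n = 5 per group, edgeR adjusted p = 5.79e-13) in tdT- and 17.45 ± 0.63 (adjusted p = 1.64e-13) in tdT+ dCAMs. It had the smallest p of all 16632 genes in both comparisons. The tdT+ CTL libraries held 0 to 3 Saa3 counts each and 7 together, so the tdT+ estimate rests on few counts. The ratio of pooled, scaled counts there was 197889, with a 95% counting interval of 96045 to 492199. Saa3 alone took 3.46% ± 0.54 of all counts in tdT- and 2.86% ± 0.096 in tdT+ LPS libraries (SD, n = 5). All 9 genes together took 4.30% ± 0.70 and 3.75% ± 0.29, against 0.0571% ± 0.018 and 0.0373% ± 0.0072 in CTL.

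Saa1 and Saa2, the apolipoproteins that dominate serum amyloid A in plasma, had 0 counts in all 10 CTL libraries. Under LPS, Saa1 reached 55.4, 140, 52.7, 86.0 and 114 CPM in tdT- cells and 95.4, 131, 64.9, 156 and 106 CPM in tdT+ dCAMs. Every LPS library was thus clearly above the floor of 3 counts per library. Measured against that floor, Saa1 was at least 238-fold higher in tdT- and at least 326-fold higher in tdT+ dCAMs (edgeR adjusted p = 4.05e-07 and 2.79e-07). These counts may include Saa3 reads, whose share was not tested.

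Saa2 reached 13.3, 30.8, 9.22, 17.7 and 13.7 CPM in tdT- cells and 14.6, 18.9, 7.17, 23.0 and 25.1 CPM in tdT+ dCAMs under LPS. It was at least 45.0-fold and at least 52.4-fold higher than the floor (edgeR adjusted p = 7.65e-05 and 7.30e-05). Mouse 59 was the lowest for both genes in both populations and mouse 54 the next lowest. Counting the 2 genes as 1 kept both calls, with adjusted p = 2.37e-07 in tdT- and 1.69e-07 in tdT+ dCAMs.

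Lcn2, the siderophore-binding lipocalin, also went from near 0 to high levels. It stood at 3963, 5339, 6530, 5772 and 7352 CPM in tdT- cells and at 4550, 8100, 7378, 6155 and 7031 CPM in tdT+ dCAMs of LPS mice. CTL libraries held at most 1.92 CPM (17 counts, tdT- dCAMs of mouse 178) and 2.77 CPM (24 counts, tdT+ dCAMs of mouse 177), and 3 of the 10 held none. The log2 fold change was 13.18 ± 1.08 in tdT- and 13.32 ± 1.08 in tdT+ dCAMs (SE, n = 5 per group, edgeR adjusted p = 3.85e-08 and 2.89e-08). Without mouse 178 the tdT- log2 fold change was 14.42, and without mouse 177 the tdT+ one was 15.75, with 8 and 4 Lcn2 counts left in the other CTL libraries. Mouse 54 was the lowest LPS mouse in both populations.

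Hp rose from a similarly low start. In LPS mice its levels were 1022, 771, 890, 1127 and 1112 CPM in tdT- cells and 385, 951, 778, 604 and 966 CPM in tdT+ dCAMs. In CTL, 6 of 10 libraries held no count, and single libraries held 4.50 CPM (tdT- dCAMs of mouse 175) and 3.07 CPM (tdT+ dCAMs of mouse 179). The log2 fold change was 9.84 ± 1.34 in tdT- and 10.03 ± 1.35 in tdT+ dCAMs (SE, n = 5 per group, edgeR adjusted p = 3.42e-05 and 3.17e-05). The size of both estimates rested on those single CTL libraries. Without mouse 175 the tdT- log2 fold change was 12.57, with 5 counts left in the other 4 CTL libraries, and without mouse 179 the tdT+ CTL libraries held no count and Hp was at least 2011-fold higher than the floor of 3 counts per library. The tdT+ LPS libraries spread 2.51-fold and the tdT- ones 1.46-fold.

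Voom with quality weights, run in place of edgeR, called 5 of the 9 genes in tdT- dCAMs and lost Saa3, Lcn2, Hp and Wfdc17, of which Saa3 and Lcn2 were also lost in tdT+ dCAMs. The adjusted p then reached 0.962 for Saa3, although its fold change was as large as in edgeR. The voom trend fell below 0 at high counts, to -0.225, and the weights of Lcn2 ran from 0.245 to 8.92e+10. Voom with the mouse as a block also lost Lcn2 (adjusted p = 0.992 in tdT- and 0.994 in tdT+ dCAMs), and limma-trend with the same block called 9 of 9 in both populations.

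Ptx3 was nearly absent in CTL, with 2.60 and 1.05 CPM in the tdT- and tdT+ libraries of mouse 178, 0.162 CPM in the tdT+ library of mouse 174 and no count in the other 7. Under LPS it reached 95.7, 71.7, 65.9, 85.9 and 261 CPM in tdT- cells and 38.7, 71.8, 76.1, 23.7 and 154 CPM in tdT+ dCAMs. Mouse 61 stood above the other 4 in both populations. The log2 fold change was 7.74 ± 1.45 in tdT- and 8.17 ± 1.49 in tdT+ dCAMs (SE, n = 5 per group, edgeR adjusted p = 0.00096 and 0.00095). Both sizes rested on mouse 178. Without it, Ptx3 was at least 300.3-fold higher than the floor of 3 counts per library in tdT- dCAMs, and 1 CTL count was left in tdT+ dCAMs, where the ratio of pooled, scaled counts was 2918 (95% counting interval 524 to 115295).

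Slpi, the elastase inhibitor, was uneven among CTL mice. In tdT- dCAMs, mouse 174 held 21.2 CPM (140 counts) and the other 4 CTL mice 0. In tdT+ dCAMs the CTL values were 0, 0, 0.115, 0 and 1.92 CPM. Under LPS it reached 155, 150, 158, 150 and 377 CPM in tdT- cells and 53.7, 94.7, 125, 22.2 and 145 CPM in tdT+ dCAMs. Mouse 61 was again the highest in both populations and mouse 60 the lowest, and no LPS library was as low as a CTL library.

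The log2 fold change of Slpi was 5.55 ± 1.58 in tdT- and 7.58 ± 1.76 in tdT+ dCAMs (SE, n = 5 per group, edgeR adjusted p = 0.024 and 0.0090). The tdT- call was lost when these 10 libraries were fitted alone (adjusted p = 0.108) or without mouse 56, 59 or 61 (0.051 to 0.071). Without mouse 174, the CTL mouse with 140 counts, the tdT- CTL libraries held no count and Slpi was at least 553-fold higher than the floor of 3 counts per library. Without mouse 179, 1 count was left in the tdT+ CTL libraries, and the ratio of pooled, scaled counts was 3126 (95% counting interval 561 to 123485).

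Wfdc17 stood apart as the 1 gene of the 9 already well expressed without LPS. CTL libraries held 691, 292, 759, 449 and 662 CPM in tdT- cells and 301, 329, 385, 473 and 303 CPM in tdT+ dCAMs. LPS libraries held 598, 1441, 1867, 678 and 1832 CPM in tdT- cells and 870, 1553, 2166, 1036 and 1972 CPM in tdT+ dCAMs. In tdT- dCAMs the LPS mice 54 and 60 lay among the CTL mice, while in tdT+ dCAMs all 5 LPS libraries lay above all 5 CTL libraries. The 5 LPS mice ranked in the same order in both populations, 54, 60, 56, 61 and 59 from low to high.

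The log2 fold change of Wfdc17 was 1.17 ± 0.33 in tdT- and 2.08 ± 0.34 in tdT+ dCAMs (SE, n = 5 per group, edgeR adjusted p = 0.023 and 0.00027). The tdT- call was lost in a fit of these 10 libraries alone (adjusted p = 0.094) and without mouse 56, 59 or 61 (0.062 to 0.078). With the mouse as a block it was lost under voom (0.295) and kept under limma-trend (0.023). In tdT+ dCAMs it was lost under voom with the block (0.214).

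Wfdc21, a small WAP domain gene beside Wfdc17 on chromosome 11, was counted little. It held 10.5, 4.55, 3.26, 4.26 and 5.94 CPM in tdT- cells and 3.92, 12.5, 8.91, 5.08 and 7.83 CPM in tdT+ LPS libraries. CTL libraries held 1 count in all in tdT- and 3 in all in tdT+ dCAMs. The ratio of pooled, scaled counts was 229 in tdT- (95% counting interval 40.8 to 9061) and 119 in tdT+ dCAMs (40.5 to 579), and both passed the edgeR test (adjusted p = 0.0016 and 0.0030). Without mouse 179 (tdT-) or mouse 175 (tdT+), the CTL libraries held no Wfdc21 count, and LPS dCAMs were at least 15.3-fold and at least 22.2-fold above the floor of 3 counts per library. Mouse 54 was the highest in tdT- and the lowest in tdT+ dCAMs.

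In tdT+ dCAMs every LPS library lay above every CTL library for 9 of the 9 genes, and in tdT- dCAMs for 8, the exception being Wfdc17. Over all genes tested, 10.6% and 9.32% showed such a separation, while the 9 were chosen with earlier results of these data known. DNA amplification precedes these libraries and no molecular identifiers were counted, so the counting intervals cover counting error only.

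**Figure D2:**
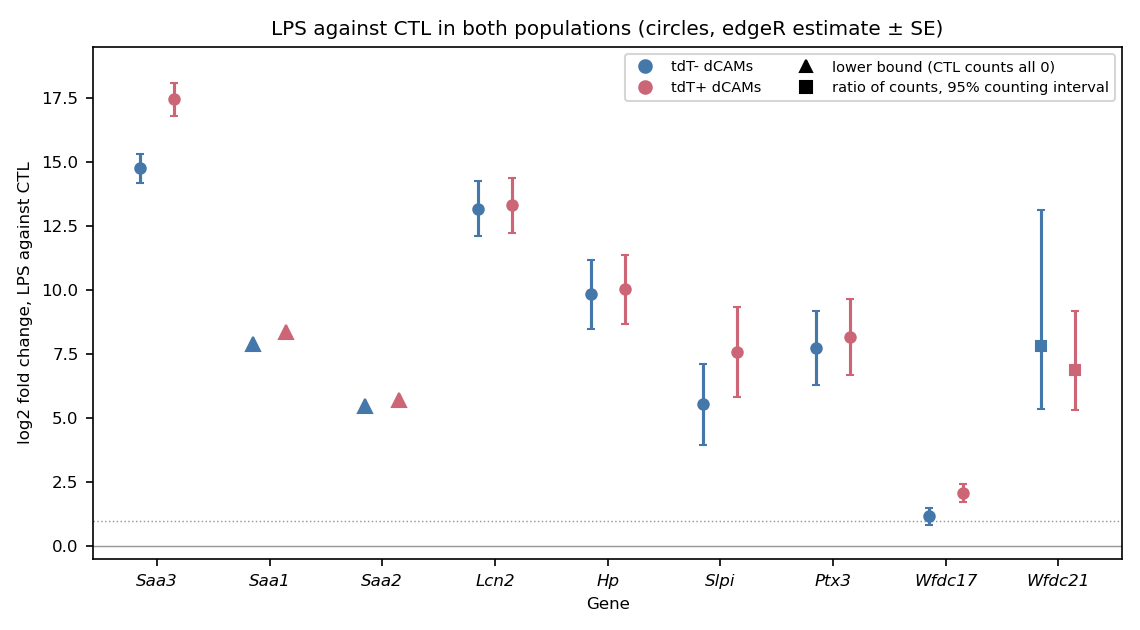
Log2 fold change of LPS against CTL for each gene in tdT- (blue) and tdT+ (red) dCAMs; circles are edgeR estimates with SE, triangles are lower bounds against 3 counts per library where CTL was all 0, and squares are ratios of pooled counts with their 95% counting interval. All values lie above 0, from 1.17 for Wfdc17 in tdT- dCAMs to 17.45 for Saa3 in tdT+ dCAMs, and the dotted line marks the threshold of 1.

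Per kilobase of the principal transcript, the tdT- LPS level fell from Saa3 at 62909 ± 11882 CPM per kb through Lcn2 at 6329 ± 1396, Wfdc17 at 2407 ± 1150, Hp at 732 ± 113, Slpi at 226 ± 114, Saa1 at 147 ± 61.7, Ptx3 at 61.1 ± 43.2 and Saa2 at 26.0 ± 12.7 to Wfdc21 at 13.1 ± 6.52 (SD, n = 5). Saa3, Lcn2, Wfdc17 and Hp did not overlap with their neighbours in that order, while Slpi and Saa1, Saa1 and Ptx3, Ptx3 and Saa2, and Saa2 and Wfdc21 overlapped. In tdT+ dCAMs the order was the same except that Saa1 (182 ± 57.3 CPM per kb) and Slpi (101 ± 57.5) changed places. With all annotated exons as the length, Lcn2 (2208 ± 487) came below Wfdc17 in tdT- dCAMs, so the order of these neighbours depends on the transcript assumed. Saa3 remained the first of the 9 with either length.

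The second question was whether cells carrying the Ccr2 label differed from unlabelled cells of the same mouse. Under LPS, 0 of the 9 genes passed the edgeR test, and 5 of all 16632 genes (0.0301%) did. At an unadjusted edgeR p under 0.05 the count was also 0 of 9. The number passing was 0 by DESeq2, voom and limma-trend as well. In an alternative fit Lcn2 had an adjusted p under 0.05, but it did not pass the fold threshold. The log2 difference of tdT+ against tdT- was -0.25 ± 0.33 for Saa3, 0.20 ± 0.64 for Lcn2, -0.42 ± 0.90 for Hp and 0.31 ± 0.44 for Saa1 (SE, n = 5 per group, each adjusted p = 1 by edgeR). This fit took its spread from all 20 libraries, near-empty CTL groups included, and did not pair the libraries of a mouse. Its standard errors are therefore not the spread of the LPS libraries alone. For Saa3 the SD was 18.9% and 5.28% of the mean under LPS and 69.6% and 72.3% in CTL (tdT- and tdT+). For Lcn2 it was 22.1% and 20.5% under LPS and 126% and 180% in CTL. The standard errors of Slpi (-1.17 ± 1.31), Ptx3 (-0.67 ± 1.06) and Wfdc21 (0.43 ± 1.05) left room for larger differences in either direction.

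Within single mice, 2 of the 9 genes had the same sign in all 5 LPS mice, as had 9.9% of all genes. Slpi was lower in the tdT+ library of 5 of 5 mice, with log2 ratios from -2.75 in mouse 60 to -0.34 in mouse 59. Wfdc17 was higher in 5 of 5, by 0.11 to 0.61 on the log2 scale. Saa3 was lower in 4 of 5 mice, Hp in 4 and Ptx3 in 3, and Lcn2 was higher in 4. With the mouse as a fixed block in edgeR, the adjusted p was 1 for both Slpi and Wfdc17. The neutrophil gene Retnlg was also lower in tdT+ dCAMs in 5 of 5 of these mice. It stood at 23.2 to 642 CPM in tdT- cells and 0 to 1.02 CPM in tdT+ dCAMs. Csf3r, another neutrophil gene, went the other way in 5 of 5, at 162 to 316 CPM in tdT- and 204 to 388 CPM in tdT+ dCAMs. S100a8 and Mmp8 were higher in tdT+ dCAMs of some mice and lower in others. The part of these genes in the Slpi values was not tested.

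**Figure D3:**
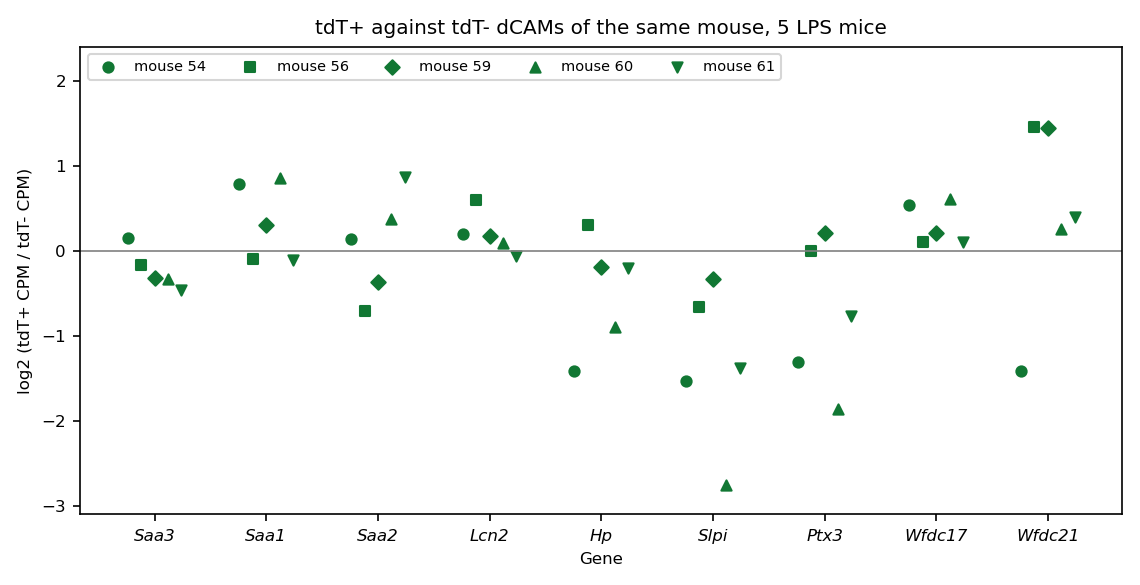
Log2 ratio of tdT+ to tdT- CPM within each of the 5 LPS mice, 1 symbol per mouse, for the 9 genes. All 5 points of Slpi lie below 0 and all 5 of Wfdc17 above it, and the other 7 genes have points on both sides.

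Without LPS, Saa3 was the 1 gene of the 9 that differed between populations, and 4.28% of all genes did. It was lower in tdT+ than in tdT- dCAMs, by a log2 difference of -2.93 ± 0.52 (SE, n = 5 per group, edgeR adjusted p = 0.0018). This compares 49 counts in 5 tdT- libraries with 7 in 5 tdT+ libraries, both a minute part of the LPS level. It was lower in 5 of 5 mice, most narrowly in mouse 175 with 0.220 and 0.212 CPM. The groups overlapped, since that tdT- library lay below the tdT+ library of mouse 178 at 0.314 CPM. Fitted on the CTL libraries alone it did not pass (adjusted p = 0.378), whereas it passed with the mouse as a fixed block (0.026).

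Levels of 3 monocyte markers, Ly6c2, Chil3 and Vcan, also differed in their medians between the populations. In CTL libraries they summed to 1.37 to 71.6 CPM in tdT- cells (median 46.7 CPM) and 0 to 3.81 CPM in tdT+ cells (median 0.230 CPM), so the ranges overlapped. Under LPS they summed to 54.3 to 151 CPM in tdT- cells and 21.3 to 38.8 CPM in tdT+ cells. Their part in the Saa3 difference was not tested. None of the other 8 genes passed in CTL mice, where Wfdc17 had a log2 difference of -0.67 ± 0.33 (SE, n = 5 per group, edgeR adjusted p = 0.220). Without mouse 179, whose tdT+ library held 40 Hp and 25 Slpi counts, both genes also passed (edgeR adjusted p = 0.035 and 0.043). The other 4 tdT+ CTL libraries held 0 Hp counts and 1 Slpi count, so no fold is given.

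The LPS effects themselves differed between populations for Saa3 alone, while 1.26% of all genes passed this test. The Saa3 effect was larger in tdT+ dCAMs by 2.69 ± 0.62 on the log2 scale (SE, n = 5 per group, edgeR adjusted p = 0.032). The levels of the populations overlapped in CTL and under LPS. The call was lost with the mouse as a fixed block (adjusted p = 0.131) or as a random block under limma-trend (0.150), and without any of the mice 174, 177, 179, 54, 56, 59, 60 or 61 (0.061 to 0.112). For Wfdc17 the difference of the effects was 0.92 ± 0.46 (edgeR adjusted p = 0.413), so its passing in both populations gives no tested difference in size.

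Other acute phase genes were mostly silent or less changed. Of 24 such genes in a list, 13 had enough counts to test, of which 6 rose in tdT- and 4 in tdT+ dCAMs by edgeR. None fell, while 1 had an unadjusted p under 0.05 as lower in tdT- and 0 in tdT+ dCAMs, and DESeq2 called 0 lower in both. The median log2 fold change of the 13 genes was 3.02 and 2.42, against 0.02 and 0.01 over all genes. Saa4, Orm1 and Serpina3n, which rose in both populations, and Hamp, which rose in tdT- dCAMs, had 0 counts in all CTL libraries. They met the count filter through LPS libraries alone, so they could not fall, and they are part of these medians. Cp, which encodes the copper-carrying ferroxidase ceruloplasmin, rose from 72.4 ± 74.2 to 994 ± 261 CPM in tdT- (SD, n = 5, edgeR adjusted p = 0.0035) and from 188 ± 51.6 to 1498 ± 136 CPM in tdT+ dCAMs (adjusted p = 0.023). The protease inhibitor gene Serpina3n went from 0 counts in all CTL libraries to 19.4 ± 15.7 CPM in tdT- cells and 20.6 ± 10.7 CPM in tdT+ dCAMs (adjusted p = 0.00016 and 0.00015).

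C3, the central complement component, rose in tdT- dCAMs from 25.9 ± 36.9 to 349 ± 95.01 CPM (SD, n = 5, edgeR adjusted p = 0.013). In tdT+ dCAMs it went from 47.1 ± 14.3 to 311 ± 62.9 CPM and missed the threshold (0.096). Orm1 and Saa4 were at 0 in CTL and stayed below 4 CPM on average under LPS, although both passed in both populations. Crp, Apcs, Fgb, Fgg and the liver marker genes Alb and Apoa1 had too few counts to test, at 0.098 CPM or less on average in every group. Ttr, the third gene of the liver list, was detected, at 10.3 ± 14.1 and 3.85 ± 3.20 CPM in CTL and 2.76 ± 2.7 and 1.69 ± 2.17 CPM in LPS dCAMs (tdT- and tdT+, SD, n = 5). It did not pass (-1.90 ± 1.74 and -1.19 ± 1.71 on the log2 scale, SE, edgeR adjusted p = 0.493 and 0.829). Of 20 further WAP domain genes, 5 could be tested and none passed in either population by edgeR or DESeq2, with 0 in tdT- and 1 in tdT+ dCAMs at an unadjusted edgeR p under 0.05.

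Among 20 cytokines, receptors and transcription factors that act upstream of acute phase genes, 9 rose and 2 fell in tdT- dCAMs, and 8 rose and 1 fell in tdT+ dCAMs. Il1rn, the interleukin 1 receptor antagonist, went from 31.7 ± 52.9 to 3528 ± 1115 CPM in tdT- cells and from 36.3 ± 26.4 to 4456 ± 1937 CPM in tdT+ dCAMs (SD, n = 5, edgeR adjusted p = 5.16e-05 and 4.65e-05). Il1r1, the signalling interleukin 1 receptor, went from 0.079 and 0.086 CPM to 87.5 ± 44.6 and 79.1 ± 17.8 CPM (adjusted p = 7.87e-07 and 7.11e-07). Il1a, Il6st, the shared interleukin 6 receptor chain, and Socs3, the inhibitor of its signalling, also rose in both populations.

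Socs3 stood at 379 ± 149 and 276 ± 128 CPM in CTL and at 1377 ± 196 and 1752 ± 275 CPM in LPS dCAMs (tdT- and tdT+, SD, n = 5). Stat3 rose in both populations, by 1.51 ± 0.33 in tdT- and 1.34 ± 0.32 in tdT+ dCAMs on the log2 scale (SE, edgeR adjusted p = 0.0033 and 0.012). The C/EBP genes named for the motif above did not pass in either population. Cebpb stood at 806 CPM in tdT- CTL and 1062 CPM in tdT- LPS dCAMs, with a log2 fold change of 0.40 ± 0.30, and Cebpd at 138 and 99.5 CPM, with -0.47 ± 0.30 (SE, n = 5 per group, edgeR adjusted p = 0.392 and 0.303). Nfkbiz, an NF-kappaB cofactor, fell in both populations, by 1.38 ± 0.31 and 1.05 ± 0.31 on the log2 scale (adjusted p = 0.0044 and 0.042). Il6 itself did not pass (2.44 ± 1.18 and 3.93 ± 1.26, adjusted p = 0.170 and 0.072).

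**Figure D4:**
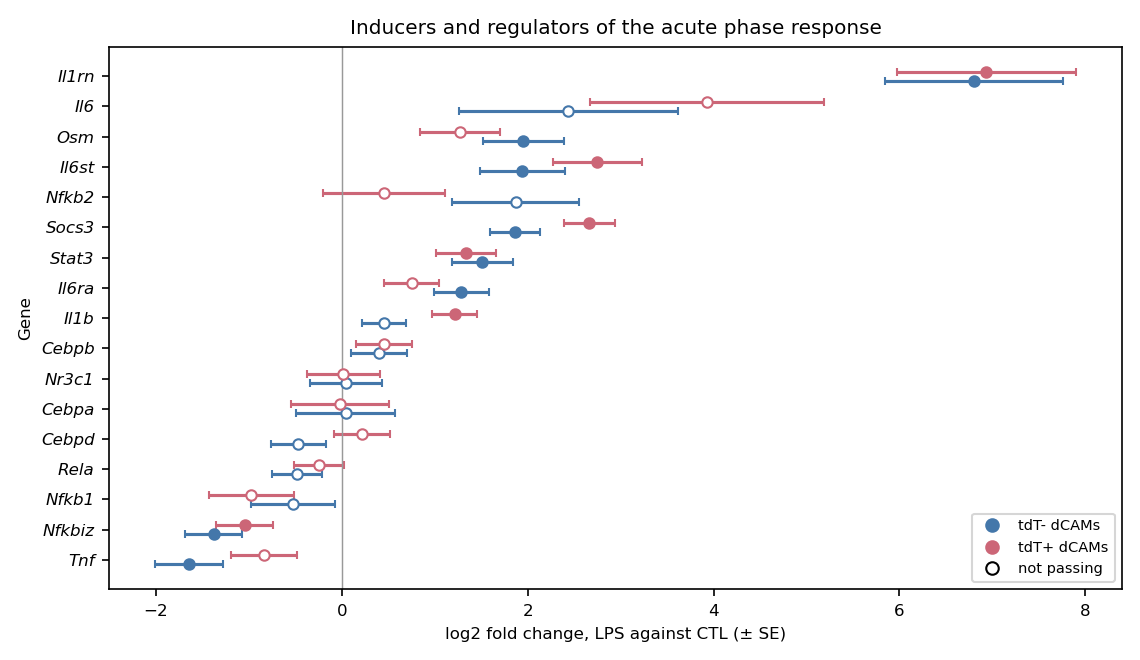
Log2 fold change with SE, LPS against CTL, for the 17 of 20 inducers and regulators with more than 3 counts in at least 1 CTL library of each population; filled circles passed and open circles did not (blue, tdT-; red, tdT+). Il1rn lies farthest right at 6.80 and 6.94, and the C/EBP genes lie near 0.

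Receptors and binding partners of the secreted proteins changed in both directions, with 4 rising and 2 falling in each population out of 15 tested. Fpr1, a formyl peptide receptor, went from 4.78 ± 7.11 to 967 ± 341 CPM in tdT- cells and from 23.2 ± 6.62 to 1342 ± 458 CPM in tdT+ dCAMs (SD, n = 5, edgeR adjusted p = 5.19e-05 and 0.00042). Selp, which encodes P-selectin, rose in both, to 7.02 ± 4.07 and 12.6 ± 5.25 CPM. Plscr1, a membrane scramblase that binds the Slpi protein, rose in tdT+ dCAMs with a log2 fold change of 3.80 ± 0.69 (adjusted p = 0.00091) and had 1.82 ± 0.64 in tdT- dCAMs (0.065). The scavenger receptor genes Cd36 and Scarb1, whose proteins can take up serum amyloid A, fell in both, Cd36 by 3.08 ± 0.38 and 2.83 ± 0.38 and Scarb1 by 1.43 ± 0.37 and 1.56 ± 0.37 on the log2 scale. The haptoglobin-haemoglobin receptor gene Cd163 did not pass (0.55 ± 0.37 and -0.22 ± 0.37, adjusted p = 0.328 and 0.871).

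Lcn2, Hp, Slpi and Wfdc21 are also known from neutrophils, so 13 neutrophil genes were read beside them. Their sum rose from between 68.7 and 196 CPM over the CTL libraries to between 434 and 1091 CPM over the LPS libraries. Of the 11 tested, S100a8, Mmp8 and Csf3r rose in tdT- and S100a8 and Mmp8 in tdT+ dCAMs. S100a8 stood at 291 ± 205 and 309 ± 165 CPM and Mmp8 at 98.0 ± 28.5 and 103 ± 34.3 CPM in tdT- cells and tdT+ LPS dCAMs (SD, n = 5). S100a9, which neutrophils express together with S100a8, was at 0.917 and 0.236 CPM on average in the LPS groups, Ly6g at 0.309 and 0.062, Ltf at 0.149 and 0, and Elane and Mpo at 0. The tdT- Ly6g mean came from 22 counts in the library of mouse 54 alone. Retnlg averaged 216 ± 260 CPM in tdT- and 0.302 ± 0.454 CPM in tdT+ LPS dCAMs (SD, n = 5) and did not pass. It too was highest in that library, at 642 CPM. Adipocyte markers were at 0 in all LPS libraries.

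The genes whose profile over the 20 libraries lay nearest to that of Saa3 were Lcn2, Hp, Cxcl13, Slc7a11 and Ctla2a, with root mean square differences of 1.56, 2.87, 3.63, 4.06 and 4.09 on the centred log2 CPM scale among 5823 genes. For Lcn2 they were Saa3, Hp, Cxcl13, Slc7a11 and Ctla2a, at 1.56, 2.35, 3.10, 3.12 and 3.17. The measure is a description across libraries that share LPS or CTL treatment. Cxcl13, a B cell chemoattractant, averaged 81.7 and 3.21 CPM in tdT- cells and tdT+ CTL and 1568 and 2087 CPM in LPS dCAMs. Ctla2a averaged 2.23 and 4.57 CPM in CTL and 686 and 951 CPM in LPS dCAMs.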

How the data were processed

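RNA of sorted dCAMs was amplified by SMART-Seq, and the authors deposited 1 table of raw counts per gene. The submitters' processing notes name bcl2fastq 2.20, STAR 2.7.11a, featureCounts 2.0.6 and DESeq2 1.46.0; the study's methods give mm10 or GRCm39 as the genome build without saying which, so coordinates here are those of GENCODE M21 (GRCm38). Counts were tested with edgeR 4.0.16 in R 4.3.3 (quasi-likelihood F test, TMM, genes with a total of at least 10 counts, 1 mean per group, all 20 libraries in 1 fit), with Benjamini-Hochberg adjustment over 16632 genes. A gene passed where the adjusted p was under 0.05 and the log2 fold change above 1 or below -1. The edgeR fit was tested on simulated counts for a single comparison. Their spread was smaller than that of the data and changes were set only in well-counted genes. Genes near 0 in CTL were thus not covered.

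Alternatives were DESeq2 1.42.0, limma 3.58.1 (voom), other scalings and filters, fits on 10 libraries, a term for the F or M in the titles, the mouse as a block, Saa1 and Saa2 summed, and leaving out each mouse. The limma-trend fit with a mouse block was added after seeing the data. Each mouse gave a tdT+ and a tdT- library, so mouse numbers pair these libraries. Deviations from the group means correlated within mice at 0.228 to 0.449 in LPS mice and -0.0046 to 0.046 in CTL mice. Library totals were 6017650 to 18925908 counts, and no 2 libraries were identical.

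The 9 genes and the gene lists were chosen with earlier results of these data known. Named genes are the 9 members in every comparison, up to 5 genes per list with the smallest adjusted p among those passing in an LPS comparison, the defining neutrophil genes and the 5 genes nearest in profile to Saa3 and to Lcn2 (mean log2 CPM of at least 4, prior count 2). Crp, Apcs, Fgb, Fgg, Hamp, Il6, Stat3, C/EBP genes, Nfkbiz, Cd163, Ttr, Mrc1, Csf1r, C1qa, Fcgr1 and Mertk were named after their values were seen. The monocyte markers are 3 genes of a longer list, and the rest of that list is not reported here. Sequences are from RefSeq; no windows were matched for Hp and Wfdc21, whose promoters were not analysed here.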

Additional observations from a re-analysis of the deposited data

Results flagged for a closer look

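Of 32 sets of 5 libraries with counts, 8 held 1 library farther from the rest than Dixon's critical gap of 0.71 of the range. The rate of about 1 in 20 holds for normally distributed values. A set with all but 1 library at 0 exceeds the gap by construction, so that rate does not apply to such sets. In 6 of the 8 the set was a CTL group in which the other libraries held next to no counts. These were Hp in tdT+ dCAMs of mouse 179 (3.07 CPM, 40 counts), Slpi in tdT- dCAMs of mouse 174 (21.2 CPM, 140 counts) and in tdT+ dCAMs of mouse 179 (1.92 CPM, 25 counts), Ptx3 in tdT- dCAMs of mouse 178 (2.60 CPM, 23 counts), and Wfdc21 in tdT- dCAMs of mouse 179 (0.131 CPM, 1 count) and in tdT+ dCAMs of mouse 175 (0.318 CPM, 3 counts). The other 2 were Slpi (377 CPM) and Ptx3 (261 CPM) in tdT- dCAMs of LPS mouse 61, which was also the highest LPS mouse for both genes in tdT+ dCAMs.

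The LPS effect on Saa3 was larger in tdT+ than in tdT- dCAMs by 2.69 on the log2 scale in the test of the difference itself, and the 2 groups that set it apart held 49 and 7 counts.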

How the results depend on the processing

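All 9 genes kept their direction under LPS in both populations in all alternatives run. With each mouse left out in turn, 7 to 9 of the 9 passed in tdT- and 9 in tdT+ dCAMs. Voom with quality weights called 5 in tdT- dCAMs, where its trend fell below 0. For tdT+ against tdT- in CTL mice, 1 gene passed in the main test, 0 in fits on 10 libraries, under voom with quality weights and under voom with the mouse as a replicate block, and 1 to 3 without single mice (3 without mouse 179). For the difference of the LPS effects, 1 gene passed in the main test, 0 under both voom fits, 0 with the mouse as a replicate block (edgeR or limma-trend), and 0 to 1 without single mice. Under LPS against CTL, 7 genes passed in each population under voom with the replicate block and 9 under limma-trend with it.

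Directions that turned belonged to differences between populations. The CTL difference of Lcn2 became -0.64 (voom block), -0.55 (edgeR block), -0.33 (limma-trend block) and -0.047 (title letter). That of Slpi became 0.10 (edgeR block), and that of Ptx3 0.25 (voom with quality weights) and 0.025 (voom block). The difference of the LPS effects became, under voom with quality weights, voom block, edgeR block and limma-trend block, -0.87, -0.56, -1.42 and -0.80 for Slpi and -0.86, -0.62, -0.44 and -0.69 for Ptx3. Without single mice the CTL difference ran from -2.57 to 1.56 for Lcn2, -6.89 to 2.49 for Hp, -7.02 to 5.73 for Slpi and -1.32 to 1.88 for Ptx3, and the LPS difference of Saa2 from -0.16 to 0.37. The difference of the LPS effects ran from -1.34 to 2.77 for Lcn2, -2.88 to 6.47 for Hp, -6.90 to 5.85 for Slpi and -2.51 to 0.65 for Ptx3. Without mouse 174 (Slpi), 178 (Ptx3) or 179 (Hp and Slpi) a CTL group held 0 or 1 counts of the gene, so the fitted sizes there depend on the prior count. The cause was not tested.

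Genes passing in either direction numbered 1907 in tdT- and 979 in tdT+ dCAMs for LPS, and 891 to 4523 and 874 to 3155 under the settings that kept all mice. For the population differences in CTL and LPS mice and the difference of effects they numbered 712, 5 and 209, and 7 to 2245, 3 to 137 and 83 to 744. Depth limits the CTL levels, since 8 of the 9 genes held 3 counts or fewer in at least 6 of the 10 CTL libraries.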
